A study of Mus musculus with 8 samples.

Results

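The S100 family of small calcium-binding proteins was followed in muscle satellite cells (SCs) of control and exercise mice by RNA sequencing. Of the 52636 genes of the deposited table, 10 were taken by gene name, namely S100a1, S100a4, S100a6, S100a8, S100a9, S100a10, S100a11, S100a13, S100a16 and S100b. The list was chosen by gene name around S100a1, which was itself selected on its far lower FPKM in exercise in these same libraries, so its values are described without a test. SCs are the stem cells of skeletal muscle, and here they came from the tibialis anterior of male C57B/6J mice that were 10 weeks old when they were put into groups. The 4 control libraries came from sedentary mice, and the 4 exercise libraries from mice that ran on a treadmill at 12 m/min for 30 min per day on 4 days of each week for 4 weeks. The sources name no allele, transgene or drug in either group. Each library was made from about 800 cells that were sorted as lacking CD45, CD11b, CD31 and Sca1 and as carrying CD34 and integrin α7, and it was amplified with a kit for single cells. The study counts the replicates of this sequencing as mice, but the labels do not say which animal a library came from, so the p-values measure the spread between these libraries, which may be partly technical.

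S100 proteins carry a pair of calcium-binding EF-hands and mostly work as dimers. Calcium opens a groove on the dimer through which it grips a target protein, and some members also leave the cell and bind receptors such as RAGE, the product of Ager. S100A1 is known from heart and skeletal muscle, where it binds the ryanodine receptor and the calcium pump of the sarcoplasmic reticulum. S100A8 and S100A9 are proteins of neutrophils and monocytes, and S100B is best known from astrocytes and Schwann cells.

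Of the 10 genes, 9 lie on mouse chromosome 3 and S100b lies on chromosome 10, and all 10 have the same coordinates in the deposited table and in GENCODE M21 on GRCm38. S100a1 (chromosome 3, 90511034 to 90514392, minus strand) and S100a13 (90514435 to 90524581, plus strand) stand head to head, with 42 bases between the deposited gene models. S100a16 (90537254 to 90543151), S100a4 (90603771 to 90606045) and S100a6 (90612882 to 90624181) follow on the plus strand. S100a8 (90668978 to 90670035, plus strand) and S100a9 (90692632 to 90695721, minus strand) come next, and S100a11 (93520488 to 93526287) and S100a10 (93555080 to 93564643), both on the plus strand, lie farther along. S100b (chromosome 10, 76253853 to 76261159) is on the plus strand. The promoter windows of S100a1 and S100a13 are shown because these neighbours share 1 stretch of DNA and had opposite differences by mean. They are chr3:90514281-90514580 (minus strand) and chr3:90514185-90514484 (plus strand) of GRCm38.p6 from RefSeq, each running 5′ to 3′, and the capitals mark the 104 bases between the RefSeq start sites, which are each other's reverse complement.
S100a1: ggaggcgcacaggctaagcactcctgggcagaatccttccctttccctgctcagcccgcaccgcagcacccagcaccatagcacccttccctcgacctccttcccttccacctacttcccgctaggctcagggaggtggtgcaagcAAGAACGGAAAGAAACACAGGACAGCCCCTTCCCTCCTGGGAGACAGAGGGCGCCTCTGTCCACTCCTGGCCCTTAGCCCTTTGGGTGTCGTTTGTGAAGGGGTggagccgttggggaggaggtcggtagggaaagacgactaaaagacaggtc
S100a13: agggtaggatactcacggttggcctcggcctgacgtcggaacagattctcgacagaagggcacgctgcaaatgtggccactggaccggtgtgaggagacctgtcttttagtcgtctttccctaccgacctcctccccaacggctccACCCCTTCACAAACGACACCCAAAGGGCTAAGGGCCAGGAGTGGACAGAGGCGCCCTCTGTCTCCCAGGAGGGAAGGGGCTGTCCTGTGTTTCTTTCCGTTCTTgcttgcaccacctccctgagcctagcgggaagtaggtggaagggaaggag
The stretch in capitals is 58.7% G and C. Read on both strands, the E-box CANNTG, the motif that muscle factors such as MyoD bind, had 0 matches in the S100a1 window and 1 in the S100a13 window, outside the capitals. It is present in 72.3% of the 32851 RefSeq windows of this length. TATAAA was in neither window and is present in 13.6% of all of them, CCAAT was in neither (37.4% of all) and GGGCGG was in neither (35.7% of all). These are matches of letters and not sites of binding.

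The values are FPKM, reads per length of the gene and per library size. Levels set against each other between genes are thus adjusted for length, but not for how well each gene was captured. Control libraries held 2339966 to 3013354 reads on genes and exercise libraries 1011737 to 1200221, with reads on 5169 to 7307 and on 2348 to 3289 genes. Some libraries stood apart or were close to each other, and whether all 8 are independent samples is not known, which bears on every n, SD and p below. Exercise 1 and 2 were the closest pair, with 3.86 as their chi-square over its degrees of freedom (compared over genes), where the other pairs of a group gave 82.6 to 711. The 345 genes with many reads in control 1 and none in control 3 were in control 4 at a median of 0.281 times their former share. The 658 with many reads in control 3 and none in control 1 were at 0.714 times theirs. Exercise 3 stood likewise to exercise 1 (0.299) and exercise 4 (0.677). The mitochondrial share of reads was 50.2% in exercise 3 and 68.7% in exercise 4, and 2.09% to 15.3% in the other 6 libraries. The sorted label was checked against its markers. Pax7, the defining transcription factor of SCs, and Itga7, Cdh15 and Calcr were listed at 0 in all 8 libraries, and Cd34 reached 1.48 FPKM in control and 9.63 FPKM in exercise. The 12 SC markers summed to 24.2 to 41.5 FPKM in control and 31.9 to 83.6 FPKM in exercise. Only Sdc4 and Cd34 had values above 0 in exercise, with Sdc4 at 30.0 to 76.1 FPKM, while Chodl was at 3.29 to 16.5 FPKM in control and listed at 0 in all 4 exercise libraries. The 15 muscle fibre markers summed to 42719 to 100647 FPKM in control and 20482 to 109040 FPKM in exercise, with Tnnc2 listed at 0 in all 8. Markers of fibro-adipogenic progenitors summed to 1873 to 3201 FPKM in control and 1585 to 2422 FPKM in exercise, with 0 of 10 listed at 0 in all 8 libraries. Recomputed by each library's read total, a scale chosen after the values were seen, the muscle fibre sums were 49090 to 98663 FPKM in control and 27193 to 34367 FPKM in exercise and did not overlap. The SC sums on that scale were 30.3 to 47.7 and 7.95 to 132 FPKM. Genes that every cell uses were also at 0 in some libraries, among them Gapdh in exercise 3 and 4, so a gene at 0 is described as listed at 0.

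S100a1 was the highest member in every control library and among the lowest in every exercise library. It stood at 420 FPKM in control 1, 20041 in control 2, 11745 in control 3 and 7094 in control 4. In exercise it stood at 1.72 FPKM in exercise 1 and 1.81 in exercise 2, from 2 reads each, and was listed at 0 in exercise 3 and 4, where 3 reads would correspond to 3.90 and 15 FPKM. The groups did not overlap, and the lowest control library was 233 times the highest exercise library, or 28.0 times it with each exercise library set to at least 3 reads. Ranked among all genes, S100a1 was 152nd in control 1 and 3rd, 4th and 5th in control 2, 3 and 4. It took 1.60% of all reads of control 2 (95% exact binomial interval 1.58 to 1.61%, counting error only) and 0.0286% of those of control 1 (0.0265 to 0.0308%). In all, 94691 reads fell on it in control and 4 in exercise. Divided by the library sizes inside the deposited values, which are not the read totals, the ratio was 8338 (95% exact interval 3256 to 30601, counting error only). With each exercise library set to at least 3 reads, the ratio of the mean levels was 1624. That ratio rested most on exercise 4, without which it was 3206, and on control 2, without which it was 1061. The spread within control was wide as well, with the highest library at 47.7 times the lowest. Within control, the summed muscle fibre markers were highest in control 1 (98663 FPKM by read total), where S100a1 was lowest. Between the groups they were lower in all 4 exercise libraries than in any control library on that scale, as S100a1 was. On the deposited scale exercise 4 had the highest fibre sum of the 8 libraries, 109040 FPKM, and S100a1 was listed at 0 there. The part of these markers in the S100a1 values was not tested. In bulk libraries, fewer cells of a type and less RNA per cell cannot be told apart.

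**Figure D1:**
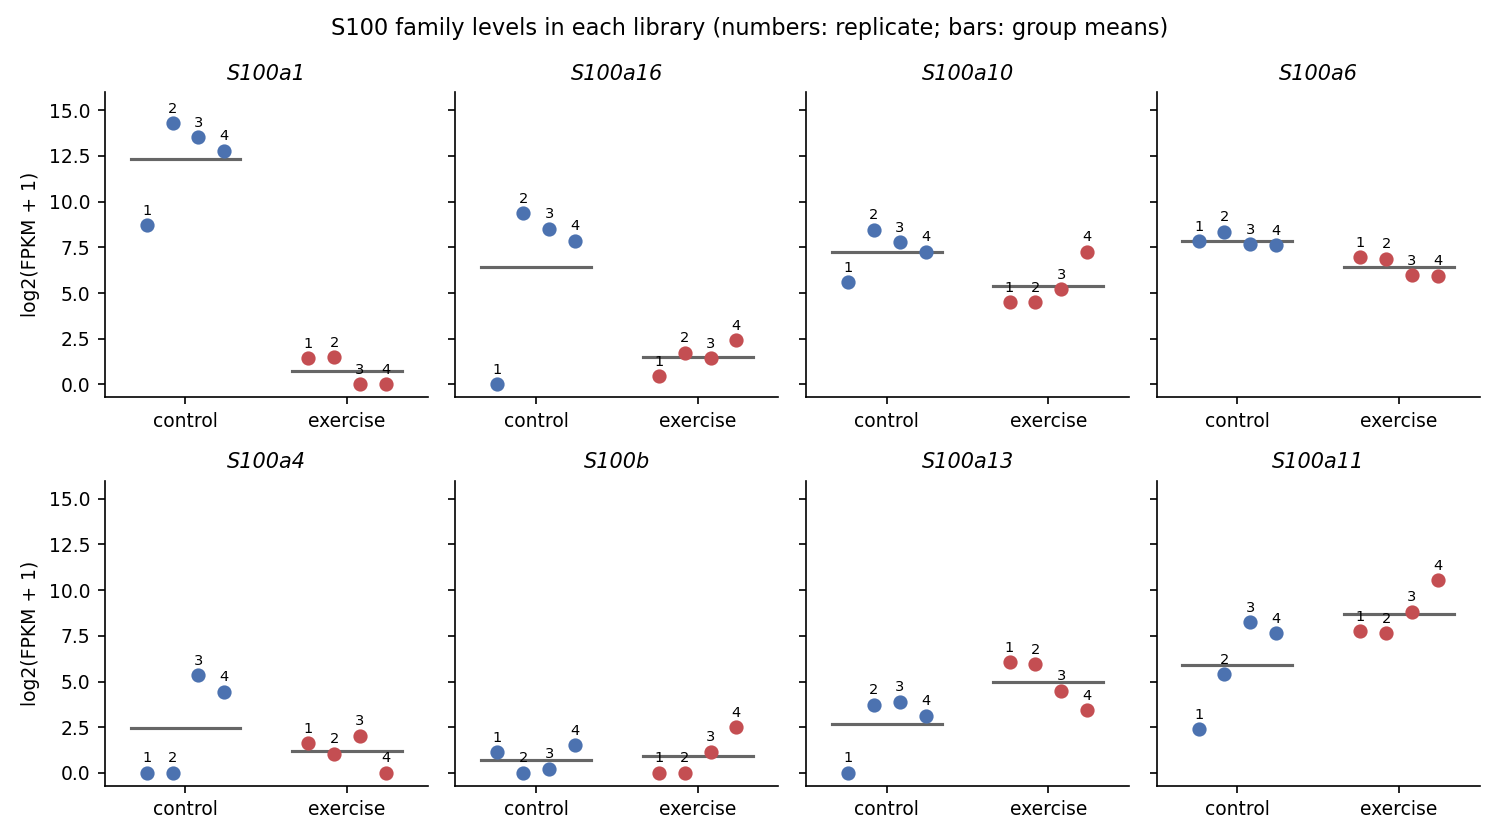
Level of each of the 8 S100 genes with reads, as log2(FPKM + 1), in the 4 control (blue) and 4 exercise (red) libraries, with the replicate number at each point and a bar at the group mean. S100a1 and S100a6 have groups that do not overlap, and S100a16 is listed at 0 in control 1 while controls 2 to 4 lie between 7.87 and 9.38.

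S100a16, a widely expressed member, was high in 3 of the 4 control libraries. It was listed at 0 in control 1 and stood at 664, 364 and 233 FPKM in control 2, 3 and 4. In exercise it stood at 0.370, 2.33, 1.67 and 4.29 FPKM, from 1, 6, 3 and 2 reads. The groups overlapped, since control 1 was below every exercise library. The log2 difference was -4.94 (SE 1.82, 95% interval -9.01 to -0.86), with a limma adjusted p of 0.0569 and an exact permutation p of 0.143 (two-sided, n = 4 and 4). Without control 1 the difference was -7.08 with a limma adjusted p of 0.000168, and with every library scaled by its read total or to a constant sum it was -5.39 and -5.57 with adjusted p of 0.0473 and 0.0477. S100a1, S100a16 and S100a10 had the same order over the control libraries, from control 2 through 3 and 4 down to control 1. Relative to its share of reads in control 2, S100a1 was at 0.661 in control 3 and 0.440 in control 4, S100a16 was at 0.618 and 0.437, and S100a10 was at 0.709 and 0.535. The 532 genes with many reads in control 2 and none in control 1 were in control 3 at a median of 0.674 times their share. Kdr, a gene of endothelial cells that is no S100 gene and was picked after its values were seen, was listed at 0 in control 1, exercise 3 and exercise 4, stood at 2994, 1669 and 1076 FPKM in control 2, 3 and 4, and was at 0.530 and 0.347 in exercise 1 and 2. Of the 10 endothelial markers, 6 were listed at 0 in all 8 libraries. The summed list ran from 0.631 to 2994 FPKM in control and from 4.42 to 26.2 FPKM in exercise. Kdr made up nearly all of it in control 2 to 4, and Tek, at 24.0, 25.8, 14.7 and 4.42 FPKM, in exercise, whereas Tek was at 0.0925 FPKM in control 1 and listed at 0 in control 2 to 4. The part of these genes in the S100a1 and S100a16 values was not tested.

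S100a10, the light chain that locks onto annexin A2 and needs no calcium to do so, stood at 46.8, 351, 221 and 151 FPKM in control 1 to 4. In exercise 1 to 4 it stood at 21.7, 21.7, 35.7 and 152 FPKM. Exercise 4 lay above control 1 and just above control 4, so the groups overlapped. The control mean was 192 ± 128 (SD, n = 4), and the exercise mean was 57.7 ± 63.0 (SD, n = 4), or 26.4 without exercise 4. The log2 difference was -1.90 (SE 0.90, 95% interval -3.91 to 0.10), and it did not pass the test (limma adjusted p = 0.116, exact permutation p = 0.0857). This gene depended on how exercise 4 was scaled. The library size inside the deposited values was 0.249 times the read total in exercise 4 and 1.58 times it in exercise 1. Recomputed by the read totals, S100a10 was at 45.8, 403, 286 and 216 FPKM in control and at 34.3, 34.3, 33.0 and 37.8 in exercise, and the groups no longer overlapped. The difference on that scale was -2.37 with a limma adjusted p of 0.0471, and with a constant sum it was -2.62 with 0.0325. Without exercise 4 it was -2.53 with 0.0316, and without control 1 it was -2.47 with 0.0416.

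S100a6, known from fibroblasts and dividing cells, had the least spread in log2(FPKM + 1) of the members with reads, on the deposited scale. It stood at 227, 328, 201 and 194 FPKM in control and at 125, 117, 61.4 and 60.9 FPKM in exercise. Every exercise library was below every control library, on the deposited scale, by read total and with a constant sum alike. By read total the exercise libraries spread more widely, at 197, 184, 56.7 and 15.2 FPKM, against 223 FPKM in control 1, the lowest control library. The means were 238 ± 62.1 (SD, n = 4) and 91.0 ± 34.6 (SD, n = 4). The log2 difference was -1.42 (SE 0.60, 95% interval -2.75 to -0.09). Its exact permutation p was 0.0286, the smallest that 4 libraries against 4 allow, and its limma adjusted p was 0.0823. The median log2 difference of all 4328 genes tested was also -1.42, so relative to that median S100a6 was at -0.01. The groups were separate in 31.6% of all genes tested (24% with exercise lower), and S100a6 was the only tested member of which this was so.

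**Figure D2:**
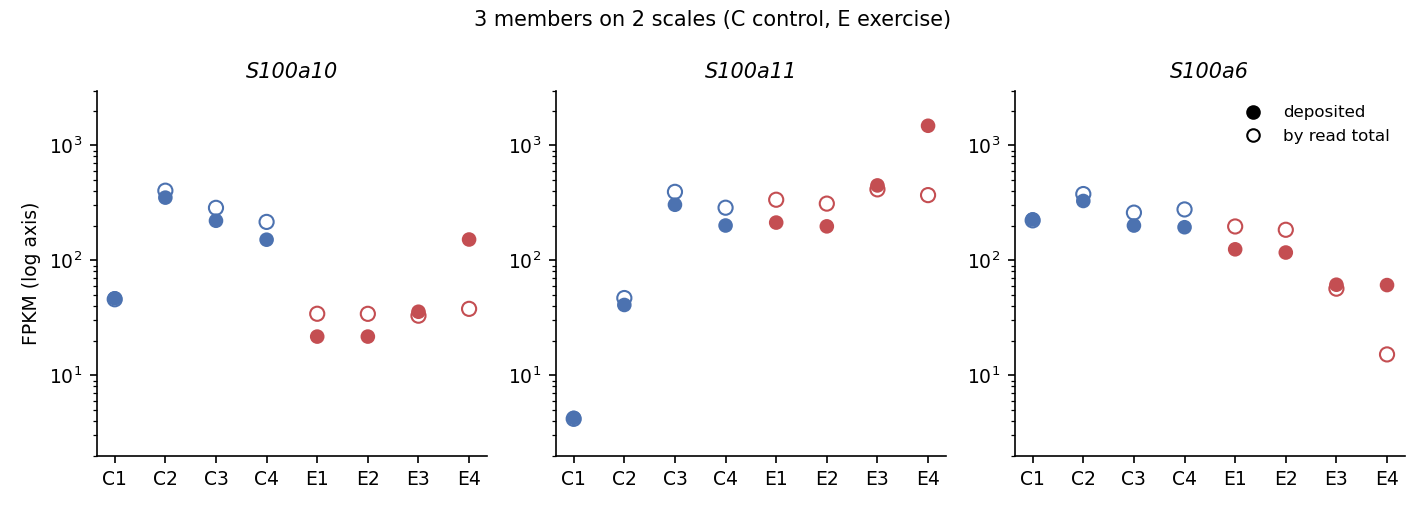
FPKM (log axis) of S100a10, S100a11 and S100a6 in control 1 to 4 (C, blue) and exercise 1 to 4 (E, red), as deposited (filled) and recomputed by each library's read total (open). The scale moves exercise 4 most, for S100a10 from 152 to 37.8 FPKM and for S100a11 from 1480 to 369 FPKM, while the S100a6 groups stay apart on both.

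S100a11, which binds annexin A1, was the highest member in every exercise library. It stood at 213, 197, 448 and 1480 FPKM in exercise 1 to 4. In control it stood at 4.27 FPKM in control 1, from 5 reads, and at 40.9, 304 and 201 in control 2, 3 and 4. Control 3 and 4 reached the levels of exercise 1 and 2, so the groups overlapped. The control mean was 138 ± 140 (SD, n = 4), and the exercise mean was 585 ± 608 (SD, n = 4). The log2 difference was 2.76 (SE 1.28, 95% interval -0.10 to 5.62, limma adjusted p = 0.112, exact permutation p = 0.143). It was 1.58 without control 1 and 0.049 with array quality weights, the exercise mean was 286 FPKM without exercise 4, and the control mean was 82.0 FPKM without control 3. By read total the exercise libraries were closer to each other, at 337, 311, 414 and 369 FPKM, and control 3 at 394 was above 3 of them. S100a11 shares 41.1% of its sequences of 50 bases with Gm12854, Gm29240 and Gm7665, so reads may be split between them. Gm12854 had 183 reads in all, Gm7665 had 79 and Gm29240 had 0, against 1085 control and 815 exercise reads on S100a11.

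S100a13, which takes part in the release of the growth factor FGF1, stood at 65.2, 60.5, 21.4 and 9.71 FPKM in exercise 1 to 4. In control 1 it was listed at 0, and in control 2, 3 and 4 it stood at 12.3, 14 and 7.72 FPKM. Exercise 4, with 2 reads, lay within the range of control. The log2 difference was 2.28 (SE 1.05, 95% interval -0.06 to 4.62), which did not pass the test (limma adjusted p = 0.108, exact permutation p = 0.0857). After quantile normalization it was 3.25 with an adjusted p of 0.0411, and without control 1 it was 1.39. Scx of the tenocyte list and Myh11 of the smooth muscle list, both picked after their values were seen, had the same libraries high. Scx stood at 101, 102, 49.2 and 3.05 FPKM in exercise and at most 0.442 in control, and Myh11 stood at 70.1, 71.5, 35.6 and 3.14 FPKM in exercise and was listed at 0 in control. Other markers of these lists went the other way. Kera of the tenocyte list stood at 5.28 to 27.9 FPKM in control and was listed at 0 in exercise. Acta2 of the smooth muscle list stood at 43.3 and 35.1 FPKM in control 3 and 4 and at most 2.03 FPKM in exercise. The 8 tenocyte markers, all with reads, summed to 659 to 1149 FPKM in control and 446 to 1733 FPKM in exercise. The 8 of smooth muscle and pericytes, of which 5 were listed at 0 in all 8 libraries, summed to 2.88 to 46.1 and 5.72 to 89.3 FPKM. The part of these cells in the S100a13 values was not tested. S100a1, its neighbour across the 104 bases printed above, had a log2 difference of -11.60, given as a description.

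S100a4, which binds non-muscle myosin, was listed at 0 in control 1 and 2 and stood at 39.5 and 20.6 FPKM in control 3 and 4. In exercise it stood at 2.05, 1.07 and 3.09 FPKM in exercise 1 to 3, from 2, 1 and 2 reads, and was listed at 0 in exercise 4. The groups overlapped, and the log2 difference was -1.27 (SE 1.28, 95% interval -4.13 to 1.59, limma adjusted p = 0.419). It was -2.09 without control 1 or control 2, -0.31 without control 3 and -0.61 without control 4, and with array quality weights it was -3.05 with a limma adjusted p of 0.00509. S100a4 overlaps Gm42674 on the same strand and shares 47.4% of its sequences of 50 bases with it, and Gm42674 had 0 reads. S100b was near the limit of detection, at 1.18, 0, 0.173 and 1.86 FPKM in control and 0, 0, 1.22 and 4.68 FPKM in exercise, from 16 and 4 reads in all. Its log2 difference was 0.20 (SE 0.67, 95% interval -1.30 to 1.70, limma adjusted p = 0.819), and it was -0.44 with a constant sum. S100b overlaps Dip2a on the other strand, on which 50 reads were counted. Schwann cell markers were few, with 7 of 10 listed at 0 in all 8 libraries and sums of 0.370 to 22.1 FPKM in control and 1.53 to 4.42 FPKM in exercise.

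S100a8 and S100a9 had no read in any library. In single libraries 3 reads would correspond to 1.08 to 15 FPKM of S100a8 and 1.44 to 19.9 FPKM of S100a9, so levels under these were not detectable at this depth. Of the 12 neutrophil markers 11 were listed at 0 in all 8 libraries, with reads on Lcn2 alone, and of the 12 markers of monocytes and macrophages 10 were.

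Over the family, 8 of the 10 genes had reads and passed the filter of a mean of at least 1 FPKM, and 7 of these were tested, S100a1 being left out. Of the 7, 0 were called at an adjusted p under 0.05 by limma, where 35.6% of all genes tested were called (26.8% lower and 8.78% higher in exercise), and 0 by voom on the recovered reads, which called 28.7% of all genes. Voom took the library sizes inside the deposited values and not the read totals, so it kept the scaling of those values. At an unadjusted p under 0.05 by limma there were 2, S100a16 and S100a6, and by voom 0, against 49.6% of all genes for limma and 44.4% for voom. By mean log2 difference 4 of the 7 were lower in exercise and 3 were higher, with a median of -1.27. Across all genes 68.3% were lower, with a median of -1.42. Scaling moved that median to -0.44 after quantile normalization, -1.57 by read total and -1.89 with a constant sum. The sign of S100b alone differed between these scalings, and the other 6 tested members kept theirs. With other settings S100a10 and S100a16 were called with a constant sum, by read total and without control 1, where 40.2%, 38.7% and 47.5% of all genes were called. S100a10 was called without exercise 4 (32.6% of all genes), S100a13 after quantile normalization (21.7%), and 5 of the 7 with limma's array quality weights (68.8%). Since members were listed with earlier results of these data known, nothing is read from these counts.

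**Figure D3:**
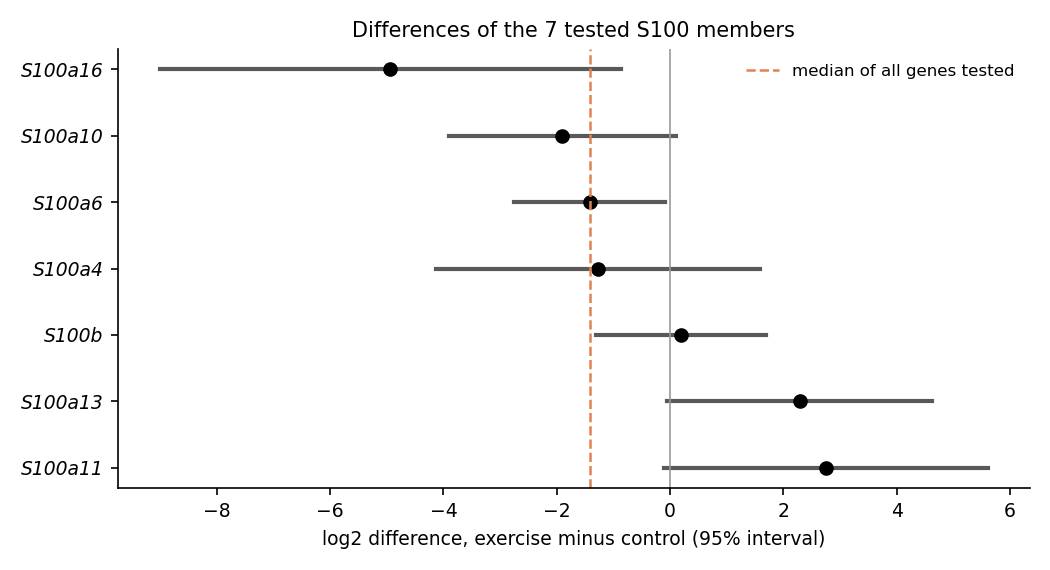
Log2 difference of exercise minus control for the 7 tested S100 genes, with dots at the estimate and lines for the 95% interval of the limma fit (4 libraries in each group). The dashed line is the median of all genes tested, -1.42, and the intervals of S100a16 and S100a6 lie below 0.

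The make-up of the family follows in large part from S100a1, whose low level in exercise chose it, and is given as a description. The 10 genes summed to 700 FPKM in control 1 and to 21437, 12888 and 7903 FPKM in control 2, 3 and 4, and S100a1 made up 60.1%, 93.5%, 91.1% and 89.8% of these sums. In exercise they summed to 429, 402, 573 and 1712 FPKM, and S100a1 made up 0.402% and 0.450% in exercise 1 and 2 and was listed at 0 in exercise 3 and 4. S100a11 made up 49.7%, 49.1%, 78.3% and 86.5% of the exercise sums. Without S100a1 the sums were 279, 1396, 1143 and 810 FPKM in control and 427, 400.0, 573 and 1712 FPKM in exercise, and the groups overlapped. In order of mean level in control, S100a1 came before S100a16, S100a6, S100a10, S100a11, S100a4, S100a13 and S100b. The control ranges of S100a16, S100a6, S100a10 and S100a11 overlapped one another, so their order was not beyond the spread. In exercise the order by mean on the deposited scale was S100a11, S100a6, S100a10, S100a13, S100a16, S100a4, S100b and S100a1. By read total S100a13 (55.2 FPKM) came above S100a10 (34.8 FPKM), and S100b (0.572 FPKM) below S100a1 (1.39 FPKM). S100a16, S100a4, S100b and S100a1 rested on 12, 5, 4 and 4 exercise reads, so their order was not beyond the spread. S100a11 was above S100a6 in all 4 exercise libraries, whereas the ranges of S100a6, S100a10 and S100a13 overlapped.

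**Figure D4:**
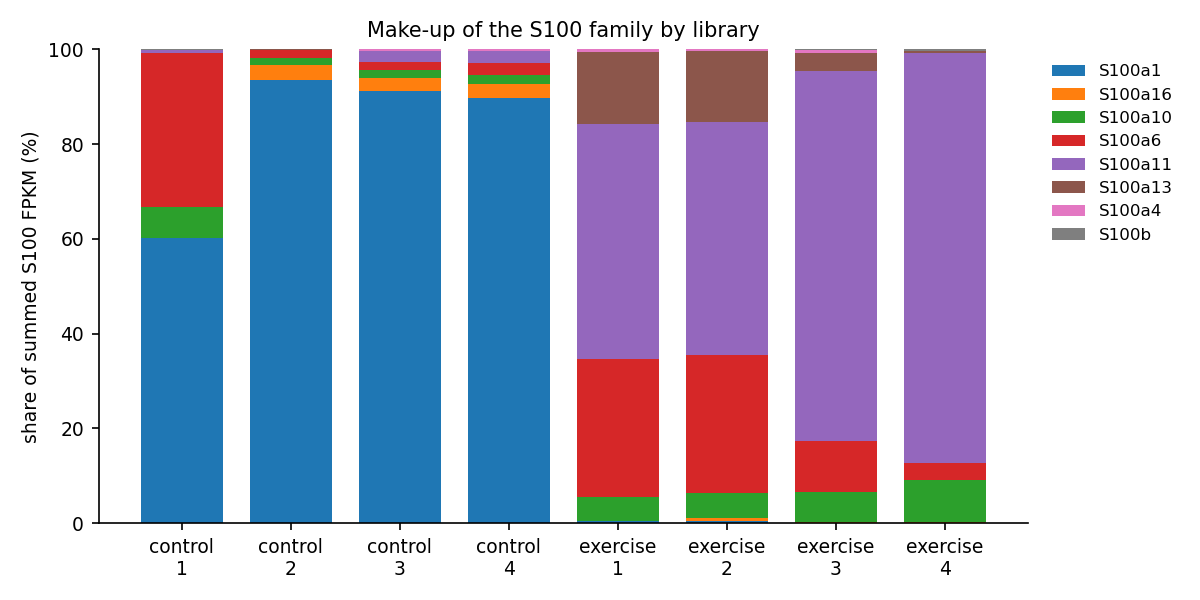
Share of each member in the summed FPKM of the S100 genes (%), stacked for each of the 8 libraries. S100a1 fills 60.1% to 93.5% of the control bars and at most 0.450% of the exercise bars, where S100a11 fills 49.1% to 86.5%.

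Genes whose proteins bind S100 proteins or serve as their receptors were taken as a list of 49, of which 31 had reads and 22 were tested. In exercise 7 of the 22 fell and 1 rose, 36.4% against 35.6% of all genes tested, and the median log2 difference was -1.70. Anxa2, the annexin that S100A10 holds, stood at 189, 199, 115 and 111 FPKM in control and at 42.3, 33.8, 16 and 2.79 FPKM in exercise, and fell by 3.08 on the log2 scale (SE 0.86, limma adjusted p = 0.0278). Its groups did not overlap, and the call was lost after quantile normalization (-2.18, adjusted p = 0.0839) and without control 3, control 4 or exercise 3. Anxa1, which S100A11 binds, was listed at 0 in control 1, stood at 20.3, 12.1 and 7.51 FPKM in control 2 to 4, and at 28.7, 26.2, 51.2 and 182 FPKM in exercise. All its exercise libraries were above all control libraries, and the difference of 2.92 (SE 1.08) had a limma adjusted p of 0.0573, and 0.0217 after quantile normalization (3.69). Pygm, the glycogen phosphorylase of muscle, and Aldoa, an aldolase of glycolysis, are enzymes that S100A1 binds. Pygm stood at 149 to 308 FPKM in control, was listed at 0 in exercise 1 and 2 and stood at 13.5 and 64.7 FPKM in exercise 3 and 4 (limma log2 difference -5.20, adjusted p = 0.0188). Aldoa fell by 2.68 (adjusted p = 0.0347 by limma), from 790 to 1529 FPKM in control to 65.9 to 765 FPKM in exercise.

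Other partners that fell included Rac1, a small GTPase, with a log2 difference of -4.58 (limma adjusted p = 0.00190), and Bsg, a receptor reported for S100A9, with -4.27 (limma adjusted p = 0.0296). Plat, tissue plasminogen activator, was listed at 0 in all 4 exercise libraries and stood at 0.210 to 11.1 FPKM in control (limma adjusted p = 0.0367), and its call was lost after quantile normalization (-1.36, adjusted p = 0.116). Ctsb, the lysosomal protease cathepsin B, rose by 3.51 (limma adjusted p = 0.0235), from 11.4 ± 3.98 FPKM in control to 202 ± 140 FPKM in exercise (SD, n = 4), and its adjusted p was 0.12 with a constant sum and 0.0889 by read total. The calcium channel Ryr1 and the calcium pump Atp2a1, targets of S100A1, had log2 differences of -1.12 and -2.30 and did not pass the test (limma adjusted p = 0.403 and 0.170). Atp2a2, the pump of slow muscle and heart, is on the same list and was called lower, with 4.09 to 8.27 FPKM in control 2 to 4 and a listing at 0 in control 1 and all 4 exercise libraries (limma log2 difference -2.07, adjusted p = 0.0460). Its adjusted p was 0.156 after quantile normalization and 0.0864 by voom. Cacybp, which binds S100A6, was at -1.86 (limma adjusted p = 0.242). Ager and Tlr4, the receptors of S100 proteins outside the cell, were listed at 0 in all 8 libraries. Myh9, a myosin that S100A4 binds, had 0, 2, 4 and 3 reads in control 1 to 4, and Fgf1, the cargo of S100A13, had 7, 2, 1 and 8, and both were listed at 0 in exercise and not tested. The 8 calls became 4, 3 and 1 without control 2, 3 and 4, where 23.9%, 19.1% and 13.4% of all genes were called, and 2 without exercise 1, 2 or 3 (11.9% to 13.6% of all genes). They became 2 with exercise 1 and 2 averaged as 1 sample, where 13.6% of all genes were called. With control 4 and exercise 3 also left out they became 0 by limma, where 3 partners and 10.4% of all genes had an unadjusted p under 0.05.

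**Figure D5:**
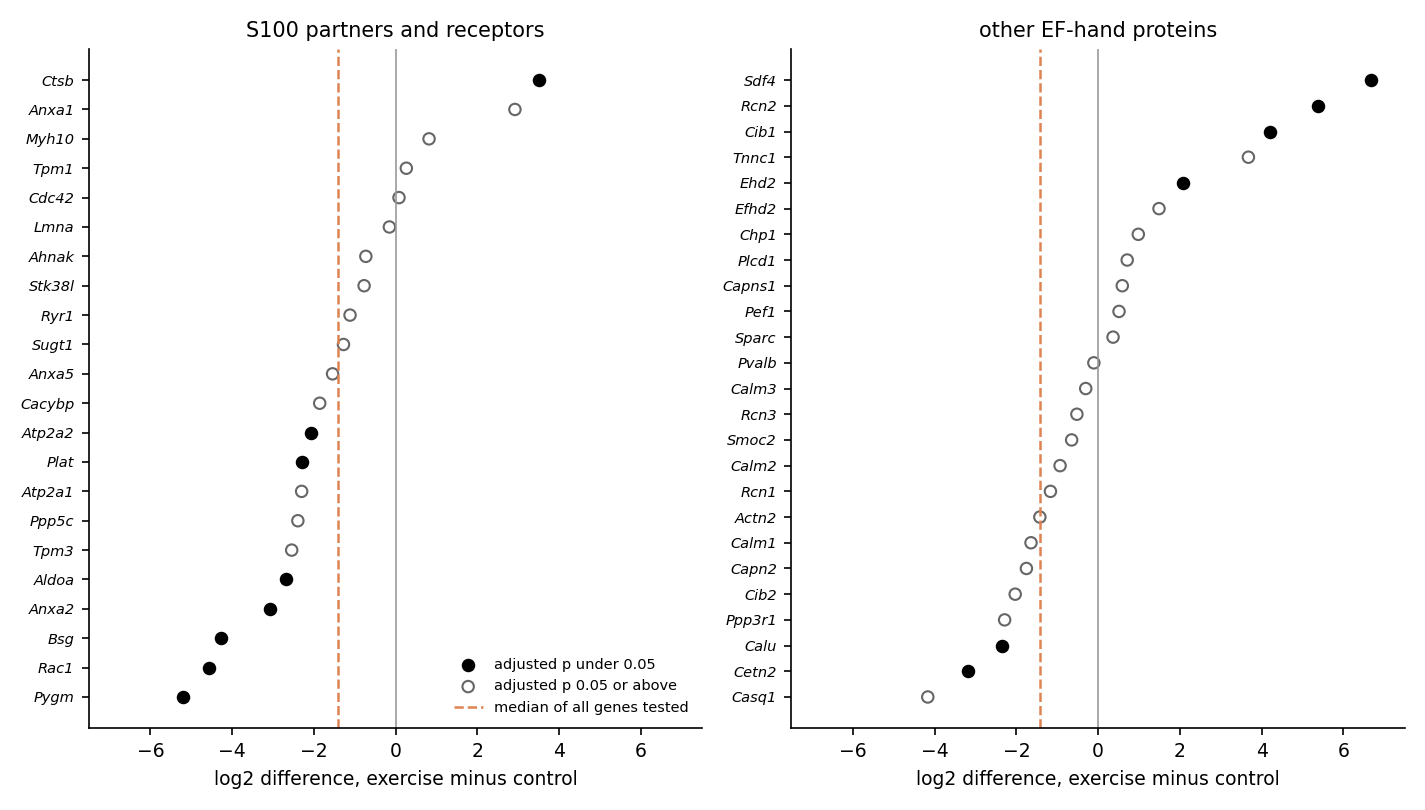
Log2 difference of exercise minus control for the tested S100 partners and receptors (22 genes, left) and other EF-hand proteins (25 genes, right), filled where the limma adjusted p is under 0.05. The dashed line is the median of all genes tested, -1.42, and Ctsb at 3.51 is the only filled partner above 0, against 4 filled EF-hand genes.

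Of 12 annexins, 8 had reads and 4 were tested, of which Anxa2 fell (25% of the 4, against 35.6% of all genes tested, with a median log2 difference of -1.02). Anxa1, Anxa2, Anxa5, Anxa6 and Anxa11 are also among the partners. Of 55 genes of other proteins with EF-hands, 37 had reads and 25 were tested, and 2 fell and 4 rose (24% of the 25, median -0.30), where 26.8% of all genes tested fell and 8.78% rose. The 4 that rose were Sdf4, a protein of the Golgi lumen, Rcn2, a protein of the endoplasmic reticulum, Cib1, which binds integrin tails, and Ehd2, a protein of caveolae. Their log2 differences were 6.68, 5.37, 4.20 and 2.09 (limma adjusted p = 0.00301, 0.00330, 0.00891 and 0.0373). Those that fell were Cetn2, a centrin, at -3.19 (limma adjusted p = 0.0193), and Calu, which resides in the endoplasmic reticulum, at -2.34 (limma adjusted p = 0.0472). Ehd2 lost its call with a constant sum (adjusted p = 0.0941) and by read total (0.0736), Cetn2 after quantile normalization (0.133), and Calu under all 3 of these scalings (0.0502, 0.0623 and 0.368). The 6 calls became 10 without control 1 (47.5% of all genes called) and 3 without control 3, control 4 or exercise 3 (11.9% to 19.1%). They and the annexin call became 0 by limma with exercise 1 and 2 averaged and control 4 and exercise 3 left out, where 4 EF-hand genes, 1 annexin and 10.4% of all genes had an unadjusted p under 0.05.

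The genes outside the family whose pattern was most like that of S100a1 were sought among 4320 tested genes, by the mean absolute difference in log2(FPKM + 1) over the 8 libraries once each gene's own mean was taken off. They were Cdc34 (1.52), Pdlim7 (1.58) and Ier3 (1.64), and S100a1 is also the member with the highest mean. Pdlim7 stood at 88.1, 963, 565 and 373 FPKM in control and at 0.247, 0, 0 and 0 FPKM in exercise. Ier3 stood at 49.7, 1455, 804 and 553 FPKM in control and at 2.12, 0, 0 and 0 FPKM in exercise. Cdc34 was like S100a1 between the groups but not within control, where control 1 was the highest library at 5969 FPKM.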

How the data were processed

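The authors sequenced 4 control and 4 exercise libraries and deposited 1 table of FPKM values per gene. The submitters' processing notes name Bowtie 0.12.9, Cufflinks 2.1.1 and HTSeq. All deposited FPKM values were whole multiples of 1 read (100%, tolerance 0.001), so reads were recovered. The library size in the deposited values is not the read total, and ranges from 0.249 to 1.58 times it. Depth was 1011737 to 3013354 reads, and a count of 0 allows 3 reads, by counting error only.

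Groups came from the sample labels. The members and lists were chosen with earlier results of these data known. Rows sharing a symbol were summed (101 fewer). The 4328 genes that averaged 1 FPKM or more were tested on log2(FPKM + 1), which understates changes of low genes, with limma 3.58.1 in R 4.3.3 (lmFit, eBayes with a trend, Benjamini-Hochberg over all genes tested), and checked on simulated data. Exact two-sided permutation tests over 70 assignments were run in Python 3.11.15. Named were all members, listed partners, and from each list the called genes, at most 6 in each direction. Motifs were counted in RefSeq windows. Alternatives covered scaling, pseudocount (0.1), filters, trend, block, weights, voom, averaging and leaving out libraries. The read-total scale was added after seeing the data.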

Additional observations from a re-analysis of the deposited data

Results flagged for a closer look

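S100a16 in control 1 stood far from the other control libraries. Its log2(FPKM + 1) was 0 there, from 0 reads, against 7.87 to 9.38 in control 2, 3 and 4, and the gap to the nearest library took 0.840 of the whole range. This was 1 of 16 groups of 4 libraries looked at in this way, of which chance alone would be expected to give 0.8.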

How the results depend on the processing

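The number of all genes called was 1541 (35.6%, 380 higher and 1161 lower). It became 840 of 9029 genes with no filter (9.3%) and 941 after quantile normalization (21.7%, 566 higher and 375 lower). It became 2978 with array quality weights (68.8%) and 596 with exercise 1 and 2 averaged (13.6%). It was 527 to 1899 with 1 library left out (11.9% to 47.5%). With exercise 1 and 2 averaged and control 4 and exercise 3 left out, limma called 0 of all genes, 0 partners, 0 annexins and 0 other EF-hand genes, and at an unadjusted p under 0.05 there were 469 genes (10.4%) and 0 of the 7 members. Of the members, 0 were called, against 1 after quantile normalization (S100a13). S100a10 and S100a16 made 2 with a constant sum (40.2% of all genes called) and 2 by read total (38.7%). With array quality weights there were 5, of which S100a6 and S100a4 under no other setting. With 1 library left out there were 0 to 2. The 8 calls among partners became 3 of 31 tested with no filter, 16 with weights, 2 with exercise 1 and 2 averaged and 1 to 9 with 1 library left out. The 1 call among annexins was Anxa1, higher, in place of Anxa2 after quantile normalization, and became 0 with no filter, 2 with a constant sum, 2 by read total, 3 with weights and 0 to 2 with 1 library left out. The 6 calls among other EF-hand genes became 16 with weights and 3 to 10 with 1 library left out. Of the recomputed log2 differences of members, 148 kept direction and side of the threshold (S100a1, untested, its direction), 14 passed it in the same direction and 4 reversed, all of S100b, which was at -0.029 with a pseudocount of 0.1, -0.44 with a constant sum, -0.40 with weights and -0.042 without control 2 (-0.042 to 0.50 with 1 library left out). The cause was not tested. S100b was under the filter without exercise 4 and by read total and has no value there. The log2 difference of S100a1 ranged from -13.54 to -10.94 over all settings, and its ratio of mean levels became 3998 with a floor of 1 read in place of 1624.

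Same-numbered libraries of the 2 groups had deviations that correlated by -0.017, 0.039, 0.017 and 0.016, so the numbers were not taken as pairs. With the replicate number as a block, 1059 genes (24.5%), 1 member (S100a16, adjusted p = 0.0308 by limma) and 5 partners were called. Depth limits S100a4, S100b, S100a8 and S100a9 most, and S100a1 and S100a16 in exercise, each of which rests on 12 reads or fewer in a whole group.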

Other observations

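The table lists 12 further S100 genes and genes of S100-fused proteins, of which S100a14 and S100g had reads. S100a14, a relative known from epithelia, had 175 reads in control 3 and 93 in control 4, or 26.0 and 13.5 FPKM, and was listed at 0 in control 1, control 2 and all 4 exercise libraries. It lay in the same libraries as S100a4, which also had its control reads in control 3 and 4 only. S100g had 1 read, in control 3. S100a2, S100a3, S100a5, S100a7a and S100z, and Hrnr, Tchh, Flg, Rptn and Crnn of the fused proteins, were listed at 0 in all 8 libraries.

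The patterns most like that of S100a11 were looked up after its values were seen. By the same measure of likeness over 8 libraries they were Gm7665 (0.533), which shares sequence with it, Vti1b (0.538), which encodes a protein of vesicle fusion, and Gm43712 (0.744). Vti1b stood at 7.30, 38.3, 121 and 63.8 FPKM in control and at 124, 115, 304 and 1272 FPKM in exercise.

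Control 4 was compared with the sum that control 1 and control 3 would give for each member, weighted by the medians above. S100a1 had 19616 reads against 21270 by that sum, S100a16 had 1504 against 1519, S100a6 had 1057 against 947, S100a10 had 730 against 735, S100a11 had 409 against 403, S100a4 had 48 against 59.5, S100a13 had 22 against 25.8 and S100b had 11 against 2.0. In exercise 3, set against exercise 1 and 4 in the same way, S100a11 had 254 reads against 215, S100a6 had 93 against 113, S100a10 had 48 against 52.2 and S100a13 had 17 against 27.8. The other members had 3 reads or fewer there, against sums under 2.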
